A study of Mus musculus with 4 samples.

Results

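The 37 genes described here act in G2 and mitosis, the stretch of the cell cycle in which a cell that has copied its DNA condenses its chromosomes, builds a spindle, separates the chromatids and divides. They were taken by symbol from a list of 37 names that was chosen with earlier results of these data known. All 37 were found among the 25509 genes of the deposited table, and all had enough counts to be among the 12135 genes tested. RNA was sequenced from 4 samples of mouse T cells, 2 Batf3-/- and 2 WT, in an experiment on the role of the transcription factor BATF3 in TH9 cells, the helper T cells that secrete interleukin 9. In all 4 samples naive CD4+ cells from spleen, sorted as CD25-, CD62L high and CD44 low, had received anti-CD3 and anti-CD28 plus TGFb, IL-4 and TL1A during 72 h of culture (TLA1 in the treatment tag of the labels). The groups therefore shared the stimulation and the cytokines, and differed by label in the Batf3 genotype alone. The labels give neither strain, age nor number of mice, and do not say which exons the Batf3 allele lacks or whether replicates came from separate mice, so the p-values below measure only the spread between these 4 samples.

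A resting naive T cell holds little RNA of these genes, and stimulation through the T cell receptor and CD28 drives it into repeated division. As cells reach G2, the MuvB complex joins B-MYB (encoded by Mybl2) and FOXM1 and switches on mitotic genes through a promoter element called the CHR (cell cycle genes homology region), which often lies next to CCAAT boxes bound by NF-Y. In quiescent cells the same MuvB core, within the DREAM complex, represses them through that element. Cyclin B and CDK1 then start mitosis, Polo and Aurora kinases build the spindle, the checkpoint holds anaphase until every kinetochore is attached, and the anaphase-promoting complex with CDC20 ends it by destroying cyclin B and securin.

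Promoter windows from RefSeq (GRCm38.p6), reaching from 250 bases before to 50 bases after the annotated start, were matched by symbol for 31 of the 37 genes; Ccna2, Foxm1, Aurkb, Incenp, Tpx2 and Kif20a had no entry. The CHR letters TTTGAA, searched on both strands, occurred in 22 of the 31 windows (71%), against 17.9% of all 32851 windows of the same length. The letters CCAAT, again on both strands, also occurred in 22 of 31 (71%), against 37.4% of all windows. Both motifs occurred together in 19 of 31 (61.3%), against 6.95% of all windows. The AP-1 letters TGANTCA, the kind of element that BATF-family and JUN proteins bind, occurred in 0 of 31 windows (0%), against 7.81% of all. Such matches are descriptions of letters and show no binding, and matches of different motifs or of the same motif may overlap. In 20 of the 22 windows with a CHR match, the match nearest to the start began within 50 bases of it. Birc5, Mad2l1, Mybl2, Nuf2, Nusap1 and Pttg1 had neither motif in this window. For some genes the RefSeq start lay away from the 5′ end of the gene in GENCODE. The difference in genome coordinates was -3867 bases for Kif2c, -2394 for Cdca8, -270 for Pttg1 and -169 for Mad2l1. Windows of these genes may therefore miss the promoter in use.

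A set of 6 windows is printed to set this architecture beside the expression values that follow, with capitals marking TTTGAA or CCAAT on either strand. Ccnb2 (chr9:70421505-70421804, minus strand) and Top2a (chr11:99024140-99024439, minus strand) show several CCAAT boxes before a CHR match near the start. Ect2 (chr3:27153829-27154128, minus strand, the window whose start matches the 5′ end of the gene in GENCODE) and Plk1 (chr7:122159185-122159484, plus strand) both carry the pair of motifs, and lay toward opposite ends of the log2 fold changes given below. Nusap1 (chr2:119618048-119618347, plus strand) and Mybl2 (chr2:163054385-163054684, plus strand) carry neither, and also lay toward opposite ends. All are written 5′ to 3′ along the gene's own strand.
Ccnb2: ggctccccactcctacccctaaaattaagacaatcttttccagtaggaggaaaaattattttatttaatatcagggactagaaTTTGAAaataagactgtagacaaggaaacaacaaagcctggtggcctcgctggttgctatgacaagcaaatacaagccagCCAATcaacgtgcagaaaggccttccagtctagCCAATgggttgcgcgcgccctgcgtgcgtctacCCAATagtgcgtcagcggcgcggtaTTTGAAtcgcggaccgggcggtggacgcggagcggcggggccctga
Top2a: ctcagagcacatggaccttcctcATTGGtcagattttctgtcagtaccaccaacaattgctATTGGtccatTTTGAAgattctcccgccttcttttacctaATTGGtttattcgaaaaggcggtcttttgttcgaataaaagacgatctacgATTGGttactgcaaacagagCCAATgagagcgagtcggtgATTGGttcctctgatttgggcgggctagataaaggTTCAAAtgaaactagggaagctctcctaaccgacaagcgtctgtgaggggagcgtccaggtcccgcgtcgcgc
Ect2: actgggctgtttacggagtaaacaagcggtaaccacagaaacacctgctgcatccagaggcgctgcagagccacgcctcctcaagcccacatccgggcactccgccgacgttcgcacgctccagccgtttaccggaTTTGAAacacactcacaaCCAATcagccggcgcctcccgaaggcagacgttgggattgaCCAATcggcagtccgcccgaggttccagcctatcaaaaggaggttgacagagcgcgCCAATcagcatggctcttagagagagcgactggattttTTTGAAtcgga
Plk1: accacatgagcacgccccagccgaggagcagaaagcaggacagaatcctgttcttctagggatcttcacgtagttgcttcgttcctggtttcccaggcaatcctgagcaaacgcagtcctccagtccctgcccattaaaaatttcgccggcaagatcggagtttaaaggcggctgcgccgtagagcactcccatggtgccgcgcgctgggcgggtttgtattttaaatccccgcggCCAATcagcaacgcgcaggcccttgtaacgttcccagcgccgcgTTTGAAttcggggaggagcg
Nusap1: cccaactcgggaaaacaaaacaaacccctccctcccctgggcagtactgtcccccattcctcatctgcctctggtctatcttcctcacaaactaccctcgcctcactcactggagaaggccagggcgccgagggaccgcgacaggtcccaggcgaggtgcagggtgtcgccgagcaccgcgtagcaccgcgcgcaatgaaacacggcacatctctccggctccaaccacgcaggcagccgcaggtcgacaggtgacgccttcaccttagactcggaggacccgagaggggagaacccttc
Mybl2: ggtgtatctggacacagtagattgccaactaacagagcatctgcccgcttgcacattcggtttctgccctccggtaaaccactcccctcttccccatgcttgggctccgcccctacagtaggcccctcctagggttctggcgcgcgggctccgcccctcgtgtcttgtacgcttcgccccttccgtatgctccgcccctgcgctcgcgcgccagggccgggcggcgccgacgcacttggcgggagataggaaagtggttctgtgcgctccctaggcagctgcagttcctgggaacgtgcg
In Ccnb2 the CCAAT matches began at positions -87, -54 and -21 from the start site and CHR matches at -167 and 4. In Plk1 a CCAAT match began at -14 and the CHR match at 30.

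**Figure D1:**
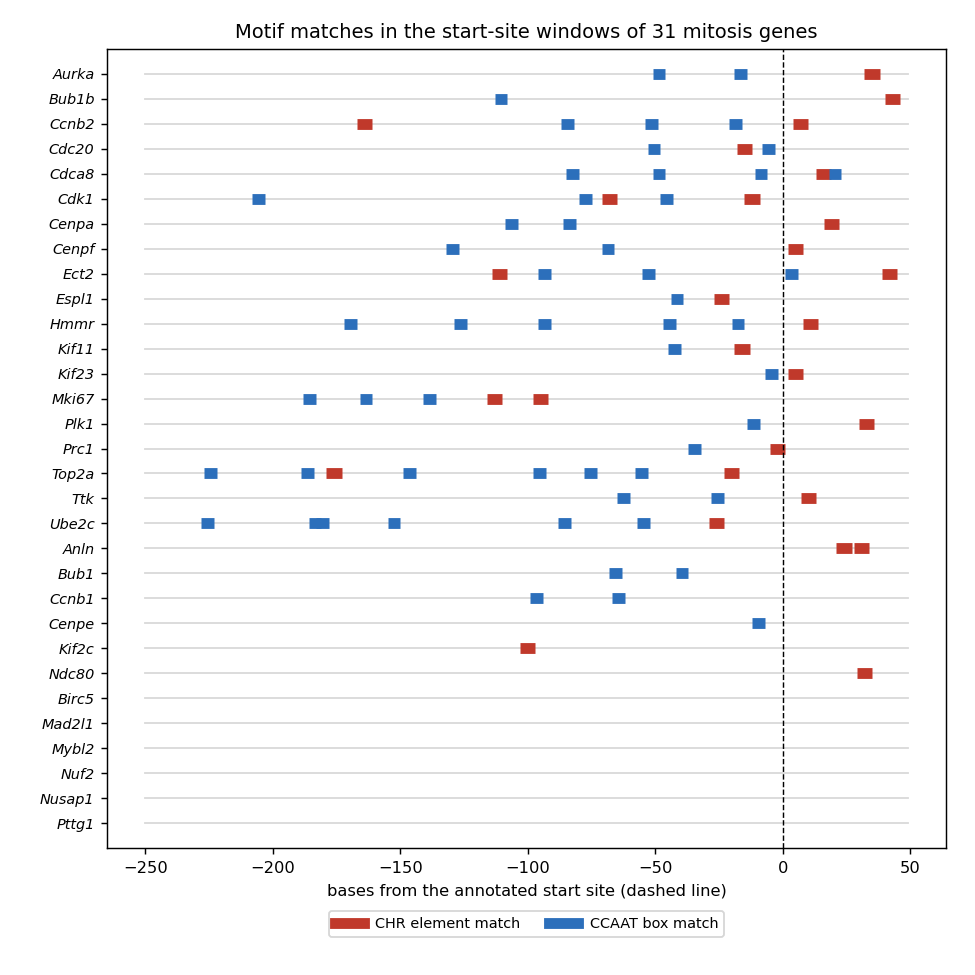
Positions of CHR (red) and CCAAT (blue) matches in the start-site windows of 31 mitosis genes, in bases from the annotated start (dashed line), 1 gene per row. In 19 genes both motifs are present, and CHR matches gather close to the start.

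Total estimated counts were 31098059 and 15624874 in Batf3-/- replicates 1 and 2, and 23754946 and 27285811 in WT replicates 1 and 2. The knockout was visible in the RNA: Batf3 had 17 and 8 counts in the Batf3-/- libraries and 1439 and 1661 in the WT libraries. The T cell genes Cd3d, Cd3e, Cd3g, Cd4, Cd28, Cd5 and Lck summed to 2073 and 2138 CPM (counts scaled to a common library size with TMM factors, the unit of every level below) in Batf3-/- libraries and to 2244 and 2002 CPM in WT libraries, while Cd8a had between 1 and 5 counts per library. Cd8b1, the other CD8 chain gene, had 7.33 and 7.24 CPM in Batf3-/- against 8.91 and 8.31 CPM in WT (log2 fold change -0.24, adjusted p = 0.958, edgeR), without overlap. The B cell gene Ms4a1 was at 0 in every library, and Cd79b had 9.97 and 12.2 CPM in Batf3-/- against 13.1 and 9.62 CPM in WT, with overlap. Ebf1 had 13.8 and 13.6 CPM in Batf3-/- against 12.8 and 17.2 CPM in WT, also with overlap. The 5 dendritic cell genes summed to 6.76 and 5.88 CPM in Batf3-/- against 9.08 and 6.81 CPM in WT, mostly from Zbtb46 and Flt3, with Clec9a at 0 in every library. The myeloid, NK cell and erythroid lists summed to at most 0.519 CPM in any library. What part such cells had in the results was not tested. The X-inactivation RNA Xist split the libraries by number: it was at most 0.214 CPM in those numbered 1 and at least 144 CPM in those numbered 2, while the Y-linked gene Kdm5d had between 17.7 and 36.4 CPM in all 4. WT replicate 1 correlated with the other libraries at 0.972 to 0.976 in log2 CPM over tested genes, against 0.982 to 0.983 among the other 3.

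All 37 genes were expressed in every library. Counts per gene and library lay between 247 and 24546, and 36 of the 37 genes stood above the median level of all genes tested, the exception being Pttg1. Per kilobase of the longest annotated transcript, Top2a (DNA topoisomerase II alpha, which untangles sister chromatids) had the highest mean level over the 4 libraries, at 161 CPM per kb. Next came the ubiquitin-conjugating enzyme gene Ube2c at 73.1, the kinase gene Aurkb at 72.8 and the cyclin gene Ccna2 at 66.6 CPM per kb. At the low end were Cenpf at 7.28 and Pttg1 at 9.22 CPM per kb.

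Batf3-/- libraries held slightly less mitotic RNA than WT libraries, and no single gene passed the test. Summed over the 37 genes, the level was 4499 and 4281 CPM in Batf3-/- replicates 1 and 2, and 5262 and 4963 CPM in WT replicates 1 and 2, so that both Batf3-/- libraries lay below both WT libraries. The Batf3-/- mean was 4390 ± 154 CPM and the WT mean 5113 ± 211 CPM (SD, n = 2 each), or 85.9% of WT. Mki67 and Top2a alone made up 28.3% of this sum. In bulk RNA, fewer cells in G2 and mitosis and less of this RNA per such cell cannot be told apart. What part single libraries or the GC content of transcripts, both described below, had in this sum was not tested. The median log2 fold change of the 37 genes was -0.23, but -0.09 without WT replicate 1 and -0.14 after a GC correction.

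**Figure D2:**
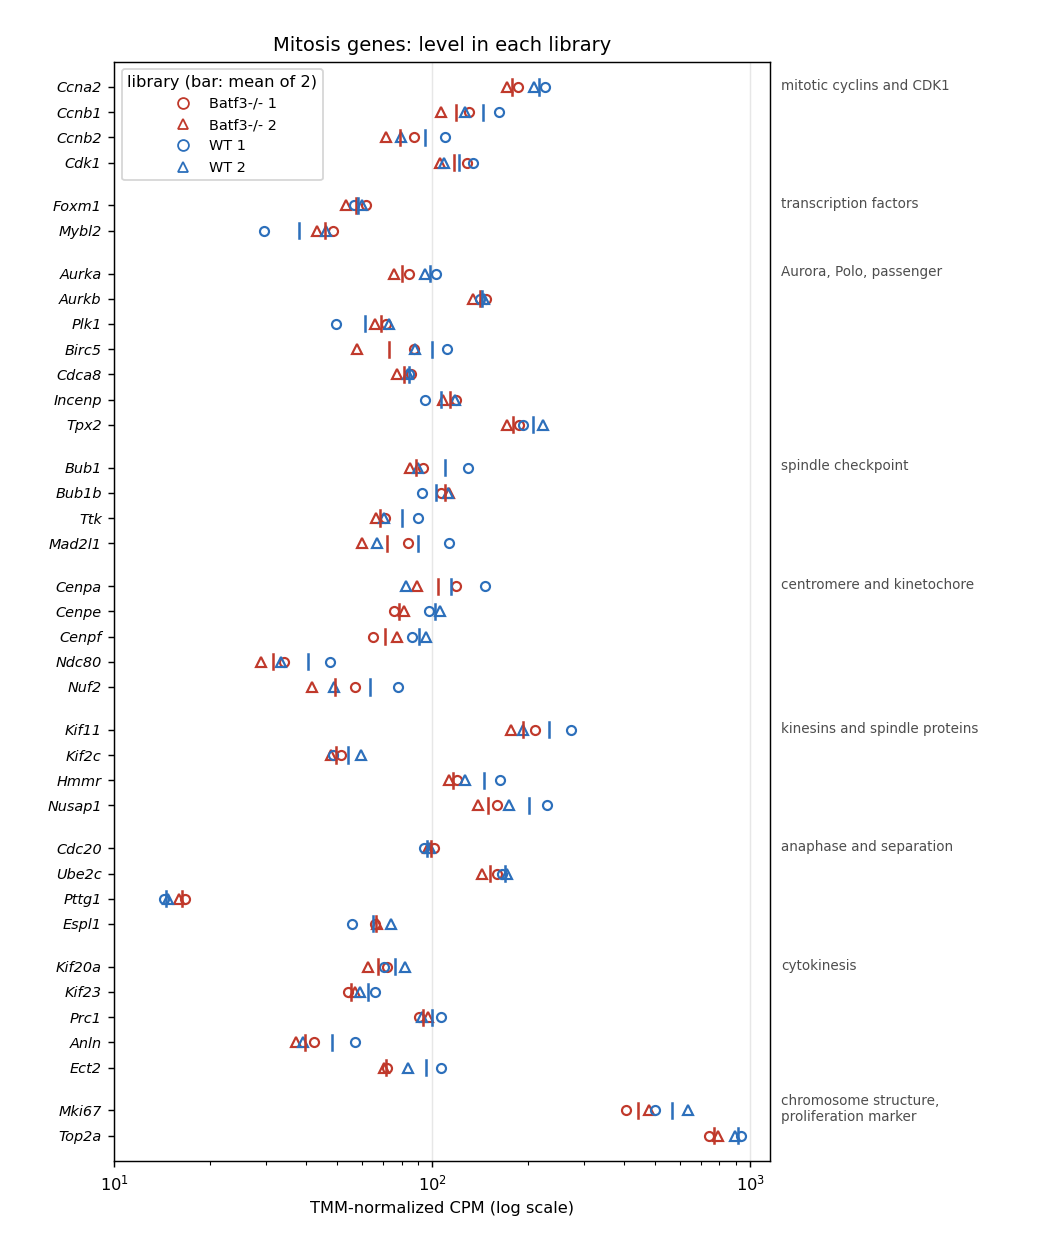
Level of each of the 37 mitosis genes in each library, in TMM-normalized CPM on a log axis, grouped by role; red marks are Batf3-/- and blue marks WT libraries, circles replicate 1 and triangles replicate 2, with bars at the means of 2. Both Batf3-/- marks lie left of both WT marks for 13 of the 37 genes, as for Top2a at 743 and 789.9 against 935 and 894 CPM. The marks of 23 genes overlap, and those of Pttg1 lie the other way.

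In edgeR's quasi-likelihood test over all 12135 genes, 0 of the 37 passed at an adjusted p of 0.05 in either direction, with adjusted p-values from 0.958 to 0.991, while 0.132% of all genes tested passed (0.0824% as higher and 0.0494% as lower). DESeq2 and limma-voom likewise called 0 of the 37. At an unadjusted p under 0.05, edgeR gave 3 of the 37, Birc5, Nusap1 and Ect2, against 4.8% of all genes tested. Log2 fold changes (Batf3-/- over WT) were negative for 30 of 37 genes, against 51.6% of all genes tested, with a median of -0.23 against -0.01. They ran from -0.45 for Birc5 to 0.28 for Mybl2, with standard errors between 0.182 and 0.247. The 95% intervals all lay between -0.90 and 0.74, that is between 0.536 and 1.67 times the WT level. Both Batf3-/- libraries lay below both WT libraries for 13 of 37 genes, against 15.6% of all genes tested, and above them for 1, Pttg1, against 18.2%. The libraries of the other 23 genes overlapped, whereas 33.8% of all genes tested did not overlap in one direction or the other.

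These values depended on single libraries. Without WT replicate 1 the median was -0.09, with 30 of 37 genes negative. Without WT replicate 2 it was -0.28, with 27 of 37 negative. Mad2l1, Nuf2 and Nusap1, the mitosis genes called lower in that fit, stood at -0.65, -0.65 and -0.61, and Mybl2, not called, at 0.64. That fit rested on WT replicate 1 alone for its WT level, and of all fits it called the most genes over the whole table. Without Batf3-/- replicate 2 the median was -0.14 and 25 of 37 genes were negative. In each of these fits the lone library of a genotype was assumed to vary like the other genotype.

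Within replicate number 1 the log2 ratio of Batf3-/- to WT was negative for 25 of 37 genes (median -0.29), against 51.5% of all genes tested. Within replicate number 2 it was negative for 33 of 37 (median -0.15), against 49.2% of all genes tested. The ratio was negative within both numbers for 23 of 37 genes, against 3383 of all 12135 genes tested. It was positive within both for Bub1b and Pttg1, against 3302 of all genes tested. Ratios spread more widely within number 1, from -0.56 to 0.72, than within number 2, from -0.61 to 0.12.

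**Figure D3:**
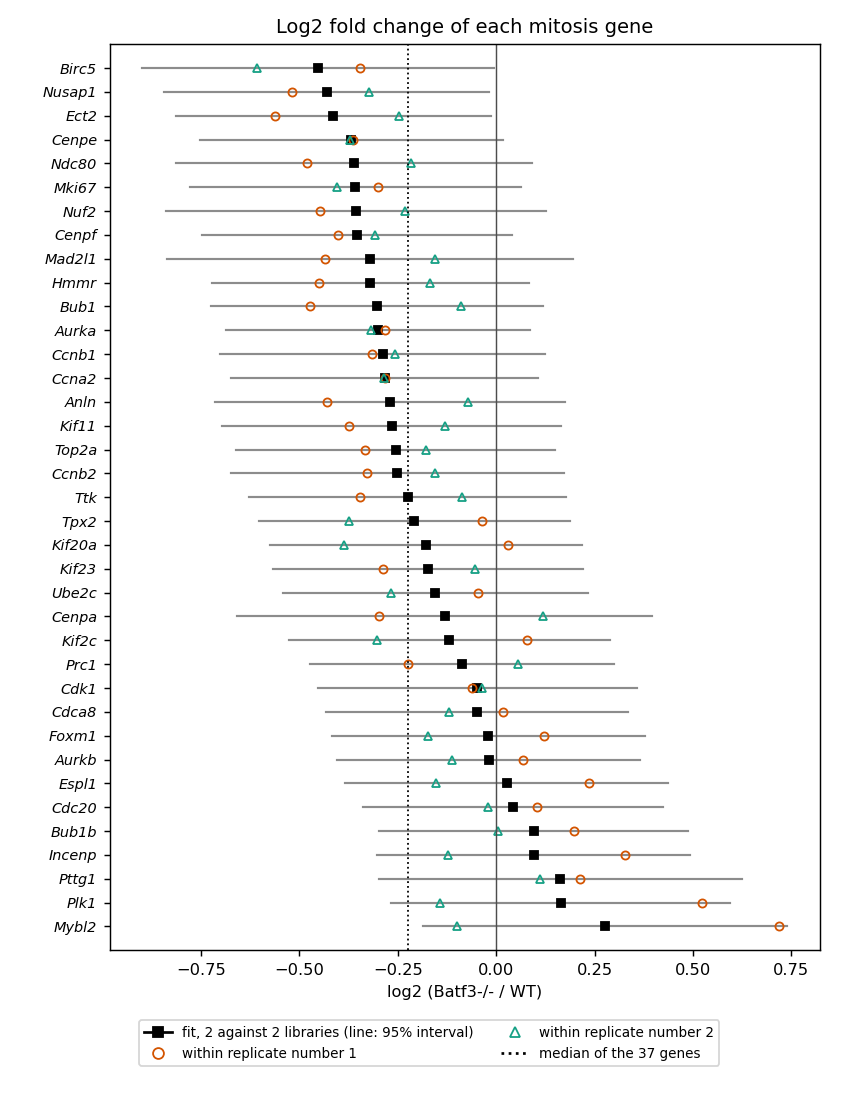
Log2 ratio of Batf3-/- to WT for each mitosis gene, ordered by the fitted value (black squares, with 95% intervals), with the ratios within replicate number 1 (orange circles) and number 2 (green triangles). Only the intervals of Birc5, Nusap1 and Ect2 exclude 0 before adjustment, and genes at the bottom such as Mybl2 and Plk1 have ratios of opposite sign within the 2 numbers.

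All 3 mitotic cyclin genes and Cdk1 had negative log2 fold changes. Ccnb1, the main partner of CDK1 at mitotic entry, had 130 and 106 CPM in Batf3-/- and 162 and 127 CPM in WT libraries (log2 fold change -0.29, SE 0.197), with Batf3-/- replicate 1 just above WT replicate 2. Ccnb2, the second B-type cyclin, had 87.3 and 71.4 CPM in Batf3-/- against 109.6 and 79.5 CPM in WT (-0.25, SE 0.202), again with overlap. Ccna2, the cyclin of S phase and G2, had 185 and 171 CPM in Batf3-/- against 226 and 208 CPM in WT (-0.28, SE 0.186). Its groups did not overlap, and its log2 ratio was -0.28 within each number. Cdk1 itself, at 129 and 106 CPM in Batf3-/- against 134 and 109 CPM in WT, had a log2 fold change of -0.05 (SE 0.193). Without WT replicate 1, the highest of the 4 libraries for all of these genes, the values were -0.11 for Ccnb1, -0.012 for Ccnb2, -0.24 for Ccna2 and 0.10 for Cdk1.

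The transcription factor genes differed from the cyclins in sign within number 1. Mybl2 (chromosome 2, 163054687 to 163084688) had 48.6 and 43.3 CPM in Batf3-/- and 29.5 and 46.4 CPM in WT libraries, where WT replicate 1 was the low one. Its log2 fold change of 0.28 (SE 0.221), the highest of the 37, came from a ratio of 0.72 within number 1 and -0.10 within number 2, and without WT replicate 1 it was -0.02. Foxm1 had 61.9 and 53.4 CPM in Batf3-/- against 56.9 and 60.2 CPM in WT (-0.02, SE 0.190).

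Among Aurora, Polo and chromosomal passenger genes, Birc5 lay lowest and Plk1 highest. Birc5 (survivin, chromosome 11, 117849251 to 117855743), a passenger subunit that targets Aurora B to centromeres, had 87.7 and 58.0 CPM in Batf3-/- and 112 and 88.4 CPM in WT libraries. The groups did not overlap, by a narrow margin between Batf3-/- replicate 1 and WT replicate 2. Its log2 fold change was -0.45 (SE 0.213, unadjusted p = 0.0480, adjusted p = 0.958, edgeR), with ratios of -0.35 and -0.61 within numbers 1 and 2; it was -0.18 without Batf3-/- replicate 2, -0.78 without Batf3-/- replicate 1 and -0.28 without WT replicate 1. The partner genes Cdca8 (borealin) and Incenp, the scaffold of that complex, stood at -0.05 and 0.09, and the kinase gene Aurkb at -0.02. Aurka, the centrosomal Aurora kinase gene, had 84.5 and 75.8 CPM in Batf3-/- against 103 and 94.5 CPM in WT (-0.30, SE 0.184), without overlap. Tpx2, which activates Aurora A on the spindle, had 188 and 172 CPM in Batf3-/- against 193 and 222 CPM in WT (-0.21, SE 0.188), also without overlap. Plk1, the Polo kinase gene, had 71.6 and 66.1 CPM in Batf3-/- against 49.8 and 73.1 CPM in WT (0.16, SE 0.206), its ratio being 0.52 within number 1 and -0.14 within number 2. Without WT replicate 1, Plk1 stood at -0.095, Incenp at -0.065 and Tpx2 at -0.32, and without WT replicate 2 Tpx2 stood at -0.10.

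The spindle checkpoint genes overlapped between genotypes in all 4 cases. Mad2l1, whose product blocks CDC20, had 83.6 and 60.1 CPM in Batf3-/- and 113 and 66.9 CPM in WT libraries (-0.32, SE 0.242), so that the libraries differed more by replicate number than by genotype. Bub1, a checkpoint kinase gene, had 93.3 and 84.9 CPM in Batf3-/- against 129.6 and 90.3 CPM in WT (-0.30, SE 0.201). The kinase gene Ttk (MPS1) stood at -0.23. Bub1b (BUBR1), at 106 and 113 CPM in Batf3-/- against 92.6 and 112 CPM in WT, stood at 0.09. With WT replicate 1 left out the values were 0.095 for Mad2l1, -0.029 for Bub1, -0.051 for Ttk and -0.047 for Bub1b.

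Of the centromere and kinetochore genes, the 2 with very long transcripts separated by genotype. Cenpe, a kinetochore kinesin gene, had 75.8 and 81.7 CPM in Batf3-/- and 97.4 and 106 CPM in WT libraries (-0.37, SE 0.184), with ratios of -0.36 and -0.37. Cenpf had 65.2 and 77.2 CPM in Batf3-/- and 86.1 and 95.6 CPM in WT (-0.35, SE 0.188), with ratios of -0.40 and -0.31. Both were therefore close to equal within the 2 numbers. Over the fits that left out a library, Cenpe ran from -0.44 to -0.31 and Cenpf from -0.48 to -0.24. Ndc80 and Nuf2, partners in the complex that grips microtubules, stood at -0.36 each; Nuf2 had 57.1 and 41.9 CPM in Batf3-/- against 77.9 and 49.2 CPM in WT, and without WT replicate 1 its value was 0.0031 and that of Ndc80 -0.098. Cenpa, the centromeric histone gene, had 119 and 89.8 CPM in Batf3-/- against 146 and 82.6 CPM in WT (-0.13, SE 0.247), and stood at 0.33 without WT replicate 1.

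All 4 kinesin and spindle protein genes had negative log2 fold changes. Nusap1 (chromosome 2, 119618298 to 119651244), a microtubule-bundling protein gene, had 160.0 and 139.6 CPM in Batf3-/- and 229 and 175 CPM in WT libraries (-0.43, SE 0.197, unadjusted p = 0.0417, adjusted p = 0.958, edgeR). Its groups did not overlap, and the ratios were -0.52 and -0.32 within numbers 1 and 2. Hmmr, a spindle assembly factor gene, had 119.8 and 113 CPM in Batf3-/- against 164 and 127 CPM in WT (-0.32, SE 0.192), also without overlap. Kif11, the motor that separates spindle poles, stood at -0.27 with overlap. Kif2c, a microtubule-depolymerizing kinesin gene, had 51.5 and 48.2 CPM in Batf3-/- against 48.7 and 59.5 CPM in WT (-0.12, SE 0.194), where WT replicate 1 lay among the Batf3-/- values. Without WT replicate 1 the values were -0.23 for Nusap1, -0.14 for Hmmr, -0.0073 for Kif11 and -0.26 for Kif2c.

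The 4 genes of anaphase onset had a median log2 fold change of 0.03, or -0.13 after the GC correction described below, when 3 of 4 were negative. Cdc20, the activator of the anaphase-promoting complex, had 101 and 97.2 CPM in Batf3-/- and 94.4 and 98.6 CPM in WT libraries (0.04, SE 0.182). Pttg1 (securin), the inhibitor of separase, was the gene with the fewest counts and had 16.6 and 15.97 CPM in Batf3-/- against 14.4 and 14.8 CPM in WT (0.16, SE 0.220). Espl1 (separase) stood at 0.03, and at -0.17 without WT replicate 1. Ube2c had 160.1 and 143 CPM in Batf3-/- against 165 and 172 CPM in WT (-0.15, SE 0.185), without overlap.

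Of the cytokinesis genes, Ect2 (chromosome 3, 27097222 to 27153878), which encodes the exchange factor that activates RhoA at the cleavage furrow, had 72.2 and 70.7 CPM in Batf3-/- and 107 and 83.9 CPM in WT libraries. The log2 fold change was -0.41 (SE 0.191, unadjusted p = 0.0431, adjusted p = 0.958, edgeR), the groups did not overlap, and the ratios were -0.56 and -0.25. Without WT replicate 1 the value was -0.24. Anln (anillin) stood at -0.27, Kif20a at -0.18 and Kif23, a subunit of centralspindlin, at -0.17. Prc1, which bundles the central spindle, had 90.8 and 96.6 CPM in Batf3-/- against 106 and 93.0 CPM in WT (-0.09, SE 0.184). Anln stood at 0.016, Kif20a at -0.29, Kif23 at -0.10 and Prc1 at -9.1e-05 once WT replicate 1 was left out.

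The protein of the proliferation marker gene Mki67 (chromosome 7, 135689784 to 135716361) coats mitotic chromosomes. Mki67 had 407 and 479.7 CPM in Batf3-/- and 501 and 635 CPM in WT libraries (-0.36, SE 0.201). Its ratios were -0.30 and -0.40. It stood at -0.18 without WT replicate 2, but at -0.53 without WT replicate 1. Without Batf3-/- replicate 1 it stood at -0.24, and without Batf3-/- replicate 2 at -0.48. Top2a (chromosome 11, 98992943 to 99024189) had 743 and 789.9 CPM in Batf3-/- and 935 and 894 CPM in WT (-0.26, SE 0.193), with ratios of -0.33 and -0.18. Neither gene's groups overlapped, and in both genotypes Mki67 was higher in replicate 2. Across the list the libraries of 1 genotype also differed: 8 of 37 genes were higher in Batf3-/- replicate 2 than in Batf3-/- replicate 1, against 49.5% of all genes tested, and 16 of 37 were higher in WT replicate 2 than in WT replicate 1, against 50.6%.

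The log2 ratios within number 1 ran along the GC content of the transcripts, and those within number 2 did so far less. The GC content of the longest transcript ranged from 40.1% (Mad2l1) to 56.3% (Mybl2) over the 37 genes. Within number 1 the log2 ratio was higher at higher GC content across the 37 genes (Pearson's r = 0.84, Spearman's rho = 0.88). Within number 2 the values were 0.11 and 0.14. These are correlations across genes that share the same libraries, given as descriptions. Over 12105 tested genes with a transcript the Pearson values were 0.42 within number 1 and 0.18 within number 2. The Spearman values there were 0.56 and 0.26, so the trend was not limited to mitosis genes. Within number 2 both were above the values of the mitosis genes. The log2 ratio of WT replicate 2 to WT replicate 1 also followed GC content across the 37 genes (r = 0.67). That of Batf3-/- replicate 2 to Batf3-/- replicate 1 did not (r = 0.03). Over the 12105 tested genes these Pearson values were 0.30 and 0.04. For the 26 mitosis genes below the median GC content of all tested genes, median ratios were -0.34 and -0.17 within numbers 1 and 2. Over all tested genes below it, these medians were -0.20 and -0.05. Among the other 11 mitosis genes the medians were 0.12 and -0.14, against 0.19 and 0.07 over the other tested genes. After a correction for each library's GC trend, 30 of 37 log2 fold changes were negative and the median was -0.14 in place of -0.23. In that fit 0 of the 37 had an unadjusted p under 0.05 in edgeR, against 351 of all 12105 genes tested. Corrected values were -0.39 for Birc5, -0.25 for Nusap1, -0.20 for Ect2, 0.11 for Mybl2 and 0.0048 for Plk1. By role, medians ran from -0.36 (centromere and kinetochore) to 0.13 (transcription factors) before the correction. After it they ran from -0.20 (Mki67 and Top2a) to -0.02 (transcription factors), with the spindle checkpoint genes at -0.08 in place of -0.26. How much of the remaining differences GC content accounts for was not tested.

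**Figure D4:**
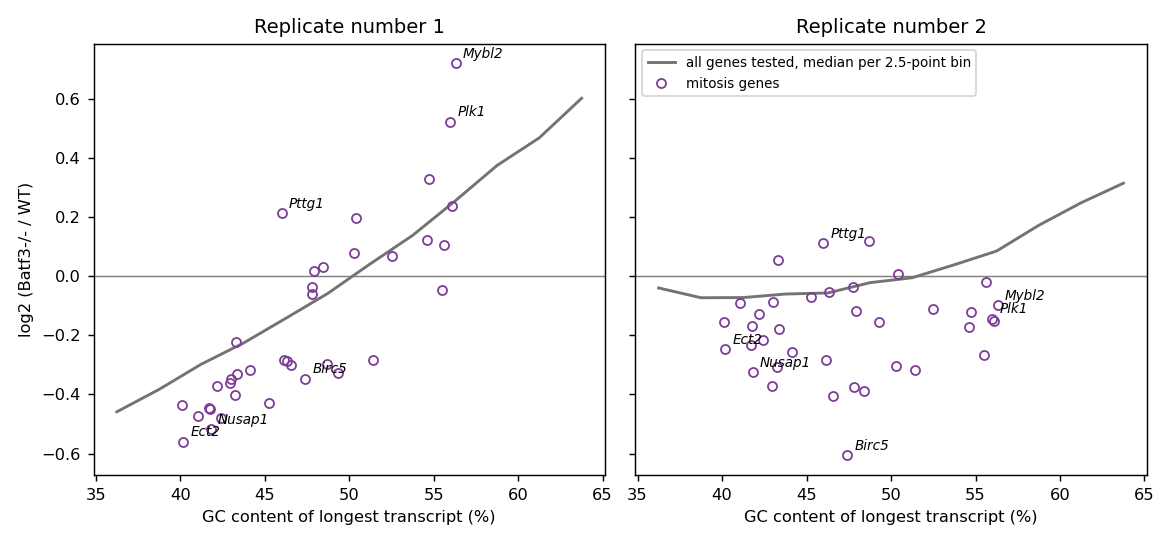
Log2 ratio of Batf3-/- to WT against the GC content of each gene's longest transcript, within replicate number 1 (left) and number 2 (right); purple circles are the mitosis genes and the grey line is the median of all tested genes per GC bin. On the left the ratios of the mitosis genes rise with GC content (r = 0.84), as the grey line does. On the right they lie mostly below 0 (33 of 37).

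Values of genes with and without a CHR match overlapped. Genes with a CHR match had a median log2 fold change of -0.20 (22 genes, 18 of them negative, range -0.41 to 0.16) and those without one a median of -0.32 (9 genes, 7 negative, range -0.45 to 0.28). The 9 genes without a match also had a lower median transcript GC content, 43.0% against 47.2%.

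Some of the 37 values share reads with neighbours. Exons of 10 of the genes overlap exons of another annotated gene, in 8 cases on the opposite strand. RSEM splits a read that fits several genes, which leaves fractional counts; these occurred in 7 of the 37 genes, against 22% of all genes tested. In 6 of these 7 the counts of the gene and of an overlapping neighbour added up to a whole number in every library (within 0.02): Ccna2 with Exosc9, Foxm1 with Tex52, Kif20a with Cdc23, Nusap1 with Oip5, Prc1 with Rccd1 and Ube2c with Tnnc2. Kif2c was the other gene with fractional counts. For Kif20a, whose exons share 1271 bases with Cdc23 on the opposite strand, and for Ccna2, Nusap1 and Prc1, levels are therefore uncertain.

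Wider cell cycle lists gave 0 called genes in edgeR in either direction, and so did DESeq2 and limma-voom. At an unadjusted p under 0.05 edgeR gave 3 of the other G2 and mitosis genes, 1 kinetochore gene, 1 p53 target and 0 in the remaining lists, while 4.8% of all genes tested lay under it. Without WT replicate 2 the other G2 and mitosis list and the kinetochore list had 3 called genes each, and the G1 and p53 lists 1 each, in the fit that called 4.46% of all genes tested. Genes named here have the smallest p-values of their list and are given as values. Of 54 other G2 and mitosis genes 42 were negative (median -0.16, or -0.067 without WT replicate 1 and -0.054 without Batf3-/- replicate 2), with Cks2, a small CDK-binding subunit, at -0.60 (adjusted p = 0.832) and the kinesin gene Kif18a at -0.66 (adjusted p = 0.940). Of 37 further kinetochore and centromere genes 29 were negative (median -0.14, or -0.05 after the GC correction), among them Casc5 (KNL1) at -0.44, while Cenpt stood at 0.42; 19 of the 37 were negative without WT replicate 1 and 20 without Batf3-/- replicate 2. Of 19 condensin and cohesin genes 16 were negative (median -0.25, or -0.07 after the GC correction), with Smc2 at -0.33 and Sgol2a (shugoshin 2) at -0.36. Of 17 anaphase-promoting complex genes 12 were negative (median -0.05, or 0.026 without WT replicate 1, when 7 were negative), with Cdc27 and Cdc26 at -0.33 each. Of 20 DREAM, E2F and NF-Y genes 13 were negative (median -0.08), with the p107 gene Rbl1 at -0.40 and Lin52 at -0.47.

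Lists of genes that act before G2, and of p53 targets, had both signs, as did every wider list above. In the mitosis list, too, 30 genes were negative and 7 positive. Of 14 tested G1 cyclins, CDKs and CDK inhibitors 7 were negative (median 0.00082), with Ccnd3, a D-type cyclin, at 0.38 and the p21 gene Cdkn1a at 0.28. Of 13 tested p53 target genes 6 were negative (median 0.11, or -0.08 after the GC correction, 0.0035 without WT replicate 1 and 0.26 without WT replicate 2), with Bbc3 (PUMA) at 0.75 (adjusted p = 0.756) and Bax at 0.32. Of 37 DNA replication genes 24 were negative (median -0.05), with Prim1 at -0.32 and Pole2 at -0.33. This list had 13 of 37 negative within number 1 (median 0.12) and 32 of 37 within number 2 (median -0.22). The mitosis genes had 25 and 33 of 37. Of the replication genes, 17 were negative without WT replicate 2 and 15 without Batf3-/- replicate 2. Without WT replicate 1, 27 were negative (median -0.13, against -0.095 for the mitosis genes). Without Batf3-/- replicate 1, 32 were negative (median -0.15, against -0.27 for the mitosis genes). Differences between the lists were not tested.

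**Figure D5:**
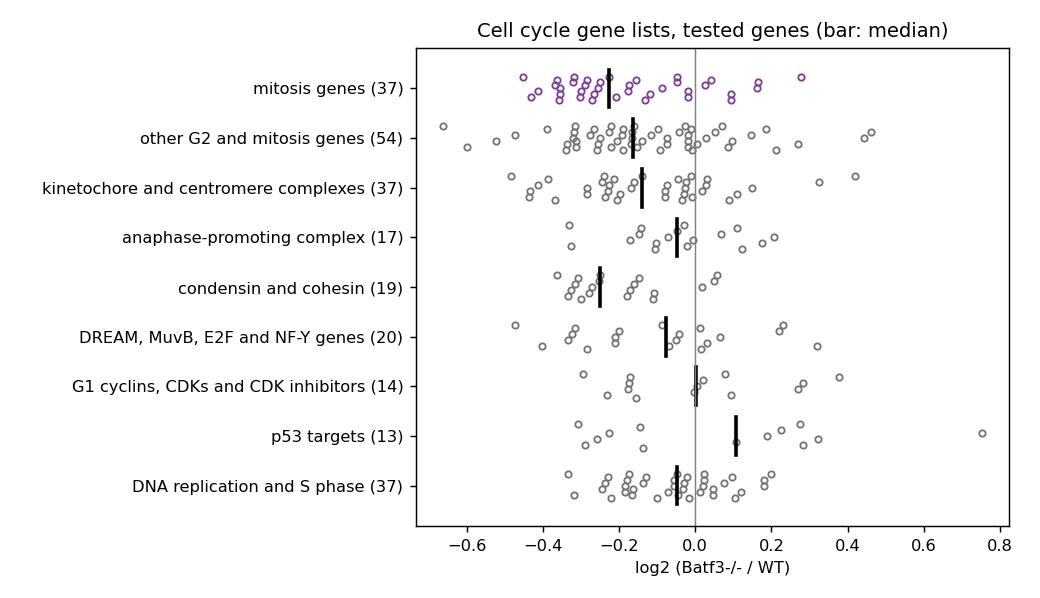
Log2 fold change (Batf3-/- over WT) of every tested gene in the mitosis list (purple, top) and in 8 other cell cycle lists (grey), with the number of genes in brackets and bars at the medians. Medians lie between -0.25 for condensin and cohesin and 0.11 for p53 targets, and 0 genes of these lists passed the test.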

How the data were processed

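The authors deposited 1 table of RSEM expected counts per gene for 4 samples; the submitters' processing notes name STAR 2.5.0, RSEM 1.2.25 and build GRCm38. For the annotation release and strand setting, the sources used here give nothing. Per the labels' protocols, a stranded mRNA kit with poly-A selection was used. The 92 spike-in entries, all at 0, were left out. Samples were grouped and numbered by their titles. Replicates of a genotype differed far beyond sampling noise (chi-square per degree of freedom 22.8 in Batf3-/- and 63.0 in WT).

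Expected counts were rounded and compared between genotypes by edgeR 4.0.16 under R 4.3.3 (genes kept by filterByExpr at minimum count 10 and total 15, TMM factors 0.982 to 1.02, robust dispersions, glmQLFit with legacy=FALSE, two-sided glmQLFTest). The model held genotype alone, and p-values were adjusted by Benjamini-Hochberg over all genes tested, at 0.05. Within-number ratios use a prior count of 0.5. Alternatives were DESeq2 1.42.0, limma-voom (limma 3.58.1), DESeq2 size factors, no filter, each library left out, a replicate block and a GC correction. The scripts were tested on simulated counts. Positions, transcript lengths and GC came from GENCODE M21 (GRCm38), which matched all 37 genes. Every member could be named; outside them, genes past the threshold or the 2 smallest p-values per list. Members and lists were chosen with earlier results of these data known.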

Additional observations from a re-analysis of the deposited data

How the results depend on the processing

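The count of 0 mitosis genes called held with DESeq2 size factors, without the filter, in DESeq2, limma-voom, the replicate block and after the GC correction; leaving out each library in turn gave 0 to 3 called lower. Over the whole table the calls were 10 higher and 6 lower; DESeq2 gave 21 higher, and leaving out each library gave 11 to 301 higher and 7 to 252 lower. Adding the replicate number as a block gave 81 genes higher and 31 lower, so the whole-table calls depend on that term. Under that block the smallest adjusted p of a mitosis gene was 0.283 (edgeR). An unadjusted p under 0.05 (edgeR) was then found for 5 of the 37, against 1025 of all 12135 genes tested. Both libraries of a number share a prefix in their titles, whose meaning the labels do not give, and deviations of same-numbered libraries from their genotype means correlated at 0.11 over all tested genes and 0.55 over the mitosis genes. The median of the 37 genes ran from -0.28 to -0.095 over the fits that left out a library.

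The GC correction turned the sign of Cdk1 (0.0054), Cdca8 (0.00080), Prc1 (0.061), Incenp (-0.029), Cdc20 (-0.12) and Espl1 (-0.14). Leaving out a library turned 14 genes, with these ranges: Mybl2 -0.021 to 0.64, Plk1 -0.095 to 0.47, Incenp -0.065 to 0.26, Bub1b -0.047 to 0.24, Espl1 -0.17 to 0.25, Cdk1 -0.20 to 0.10, Mad2l1 -0.65 to 0.10, Cenpa -0.49 to 0.33, Nuf2 -0.65 to 0.0031, Anln -0.52 to 0.016, Foxm1 -0.13 to 0.083, Aurkb -0.090 to 0.050, Kif2c -0.26 to 0.033 and Cdca8 -0.12 to 0.026. The causes of these turns were not tested. The lowest count of a mitosis gene in any library was 247.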
